A study of Mus musculus with 6 samples.

Results

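The mesothelium is the single layer of flat, epithelium-like cells that lines the peritoneal cavity and covers the organs in it, and it is the surface on which an ectopic endometrial implant attaches. Its cells come from the mesoderm, combine epithelial keratins with mesenchymal proteins, and release a lubricating coat that keeps the peritoneal surfaces from sticking together. 8 genes known as markers of this layer were followed here: *Msln*, *Muc16*, *Upk3b*, *Upk1b*, *Lrrn4*, *Gpm6a*, *Wt1* and *Bnc1*. They were chosen by gene symbol, all 8 were found among the 41786 symbols of the count files, and all 8 passed the filter on low counts that 17364 genes passed.

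The libraries came from lesions of a mouse model of endometriosis in C57BL/6 females. A GFP-positive donor of 6 weeks gave uterine tissue, which was stitched onto the peritoneal wall in a wild-type recipient of 8 weeks. Daily dosing with vehicle or with 200 mg/kg niclosamide, an anthelmintic drug, began 3 days later and lasted 3 weeks. At necropsy in diestrus the uterine-derived tissue was separated from that of the recipient. There were 3 libraries with vehicle and 3 with niclosamide, and vehicle 1 held RNA pooled from 4 mice while every other library came from 1 mouse. Both groups carry the sutured implant, and no library of unoperated peritoneum or eutopic uterus was analysed here. The counts are per gene symbol and do not separate donor from recipient transcripts.

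Library totals ran from 27797121 to 34797000 counts, and the 8 genes together had 3537 to 7852 counts in a library. Where 3 values are given for a group, they stand in the order of replicates 1, 2 and 3. CPM below is the gene's count scaled to the library total after TMM normalisation, and a count of 0 allows up to 3 counts, which is 0.0862 to 0.108 CPM for counting error alone. The labelled tissue had its markers in every library, with 55.2 to 333.5 CPM of *Hoxa10*, a positional gene of the uterus, and 127.7 to 359.9 CPM of the estrogen receptor gene *Esr1*. Skeletal muscle genes, which belong to the recipient's wall, were also present, the 15 listed summing to 1010 to 41210 CPM. The libraries of vehicle 1 and niclosamide 1 go against the strain label. *H2-Ea-ps*, an MHC class II gene known to be silent in C57BL/6 mice, had 340 counts in vehicle 1 and 1020 in niclosamide 1, against 0, 0, 0 and 1 in vehicle 2, vehicle 3, niclosamide 2 and niclosamide 3. *H2-T3*, another MHC region gene, had 40 counts in niclosamide 1 and 0 or 1 in every other library. *H2-Ea-ps* was looked at after its values had been seen, and the fold changes of the markers are given with and without these 2 libraries.

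None of the 8 markers differed between niclosamide and vehicle beyond the spread between libraries. By edgeR's quasi-likelihood test 0 of the 8 had a Benjamini-Hochberg adjusted p under 0.05, and 0% of all genes tested had one. At an unadjusted p under 0.05 there were again 0 of the 8, where 6.92% of all genes tested passed, and DESeq2 and limma-voom called 0 of the 8 as well. DESeq2 called 1.01% of the genes it tested. The 2 groups overlapped in all 8 genes, whereas they did not overlap in 12.3% of all genes tested, 5.9% with niclosamide higher and 6.37% with niclosamide lower. The median log2 fold change of niclosamide over vehicle was -0.04 over the 8 markers, with 3 of 8 above 0, beside a median of 0.02 over all genes tested, 53.7% of which were above 0. What did differ was the level from library to library within each group, and 7 of the 8 genes shared the same libraries as their highest.

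*Msln* (chromosome 17, 25748613 to 25754437) encodes mesothelin, a surface glycoprotein anchored in the membrane by a lipid, and is also known from epithelium of the female reproductive tract. It had 31.4, 12.7 and 14.2 CPM in the vehicle libraries and 15.4, 35.0 and 5.35 CPM in the niclosamide libraries. The highest and the lowest library were both in the niclosamide group, so the vehicle range lay inside the niclosamide range. The log2 fold change was -0.06 ± 0.69 (SE, n = 3 per group; edgeR quasi-likelihood, Benjamini-Hochberg adjusted p = 0.995).

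*Muc16* (chromosome 9, 18495445 to 18674821) encodes a very large membrane mucin that binds mesothelin and carries the CA125 antigen. Its 26897 bases of exon gave only 36 to 372 counts in a library. Levels were 7.37, 1.26 and 2.61 CPM in the vehicle libraries and 9.96, 11.5 and 1.12 CPM in the niclosamide libraries. It was the only marker of the 8 in which niclosamide 1 and niclosamide 2 both exceeded vehicle 1, while niclosamide 3 was the lowest of all 6 libraries. Vehicle libraries averaged 3.75 CPM ± 3.21 (SD, n = 3) and niclosamide libraries 7.53 ± 5.60. Its log2 fold change of 1.01 ± 0.95 (SE) was the highest of the 8 and close to its own error (edgeR quasi-likelihood, Benjamini-Hochberg adjusted p = 0.95).

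*Upk3b* (chromosome 5, 136038496 to 136044993) encodes a uroplakin, a membrane protein family best known from the bladder lining, of which this member marks mesothelium. It had 57.1, 3.27 and 7.04 CPM in the vehicle libraries and 13.9, 20.4 and 3.08 CPM in the niclosamide libraries. Vehicle 1 exceeded the lowest vehicle library 17.5-fold, and the niclosamide libraries differed among themselves 6.64-fold. This gene had the widest range of the 8, 18.5-fold from highest to lowest library, and its log2 fold change of -0.85 ± 1.15 (SE) was the lowest of the 8 in this fit (edgeR quasi-likelihood, Benjamini-Hochberg adjusted p = 0.966). The vehicle mean of 22.5 CPM ± 30.1 (SD, n = 3) rested on vehicle 1, the pooled library. Without it the log2 fold change was 1.28.

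*Upk1b* (chromosome 16, 38773184 to 38800345), the tetraspanin member of the uroplakins, had 23.3, 2.31 and 5.03 CPM in the vehicle libraries and 12.5, 15.1 and 2.61 CPM in the niclosamide libraries. Its libraries were ordered as for *Upk3b* except that the lowest pair, vehicle 2 and niclosamide 3, changed places. The log2 fold change was -0.02 ± 0.97 (SE; edgeR quasi-likelihood, Benjamini-Hochberg adjusted p = 0.999). Without vehicle 1 it was 1.46.

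Uroplakins known mainly from the bladder lining were near the detection limit. *Upk2* had 0 to 5 counts and *Upk3a* 0 to 3 counts in a library, and neither passed the filter on low counts. *Upk1a*, the other tetraspanin, had 11 to 18 counts, with 0.401 to 0.612 CPM. *Upk3bl*, named for its likeness to *Upk3b*, had 3.32, 1.04 and 1.70 CPM with vehicle and 1.22, 3.31 and 1.34 CPM with niclosamide, so it was highest in vehicle 1 and niclosamide 2 and low in niclosamide 1.

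*Lrrn4* (chromosome 2, 132866194 to 132894009) encodes a leucine-rich repeat membrane protein. It had 40.8, 3.05 and 6.29 CPM in the vehicle libraries and 10.8, 20.9 and 4.29 CPM in the niclosamide libraries. Vehicle 1 was again the highest library and vehicle 2 the lowest, 13.4-fold apart. The log2 fold change was -0.47 ± 1.03 (SE; edgeR quasi-likelihood, Benjamini-Hochberg adjusted p = 0.973). Without vehicle 1 it was 1.37. 593 bases of its exons overlap those of *Crls1* on the opposite strand. The authors' counting used strand, and *Crls1* had a narrow range of 846 to 1182 counts.

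*Gpm6a* (chromosome 8, 54779434 to 55060878) encodes a membrane glycoprotein of the proteolipid family that is also strongly expressed by neurons. It had 33.0, 10.1 and 22.3 CPM in the vehicle libraries and 24.0, 30.8 and 12.6 CPM in the niclosamide libraries. The order of the 6 libraries was that of *Upk1b* and *Lrrn4*, with a narrower range of 3.27-fold. The log2 fold change was 0.04 ± 0.49 (SE; edgeR quasi-likelihood, Benjamini-Hochberg adjusted p = 0.995). Nerve and glia genes were low, 9 of 11 tested and the 11 summing to 23.0 to 34.8 CPM with vehicle and 19.7 to 33.0 CPM with niclosamide, and their part in the *Gpm6a* level was not tested. None of the 11 was at 0 in every library, while *Snap25*, a synaptic gene, had 0 counts in 5 libraries and 7 in niclosamide 3.

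*Bnc1* (chromosome 7, 81966657 to 81992299) encodes basonuclin 1, a zinc finger protein of mesothelium, basal keratinocytes and germ cells. It had 9.88, 2.31 and 4.56 CPM in the vehicle libraries and 6.19, 8.28 and 3.08 CPM in the niclosamide libraries. Its libraries had the same order as those of *Gpm6a*, 4.28-fold from highest to lowest, and the log2 fold change was 0.07 ± 0.60 (SE; edgeR quasi-likelihood, Benjamini-Hochberg adjusted p = 0.993). Of 10 keratinising epithelium genes, *Krt5*, *Krt1* and *Ivl* did not pass the filter. The 10 together summed to 11.1 to 19.1 CPM with vehicle and 11.5 to 17.1 CPM with niclosamide. *Krt14*, *Krt6a* and *Dsg3* had vehicle 1 and niclosamide 2 as their highest pair, as *Bnc1* did, with 7.18 and 6.27 CPM of *Krt14*. *Krt10*, *Trp63*, *Lor* and *Krt13* did not, and *Trp63* was highest in niclosamide 1, at 8.16 CPM. The part of such cells in the *Bnc1* level was not tested.

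*Wt1* (chromosome 2, 105126529 to 105173614) encodes a zinc finger transcription factor of mesothelium, which is also known from the stroma and muscle of the uterus. It stood apart from the other 7. Its levels were 83.4, 62.1 and 88.0 CPM in the vehicle libraries and 62.5, 62.6 and 91.8 CPM in the niclosamide libraries. The range over all 6 libraries was 1.48-fold, and the highest library was niclosamide 3, which was the lowest or second lowest for each of the other 7 genes. The log2 fold change was -0.11 ± 0.21 (SE; edgeR quasi-likelihood, Benjamini-Hochberg adjusted p = 0.972), the smallest error of the 8. Endometrial stroma genes, 12 of 12 tested, had list means of 6.90, 7.22 and 7.21 log2 CPM with vehicle and 6.21, 6.92 and 7.28 with niclosamide. Like *Wt1* they were highest in niclosamide 3. They hardly differed between vehicle 2 and vehicle 3, at 7.22 and 7.21. *Wt1* was low in vehicle 2, at 62.1 CPM, where it hardly differed from niclosamide 1 and niclosamide 2. Smooth muscle genes had list means of 9.19, 8.74 and 9.17 with vehicle and 7.47, 7.09 and 8.60 with niclosamide, highest in vehicle 1. The part of stroma and muscle in the *Wt1* level was not tested.

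**Figure D1:**
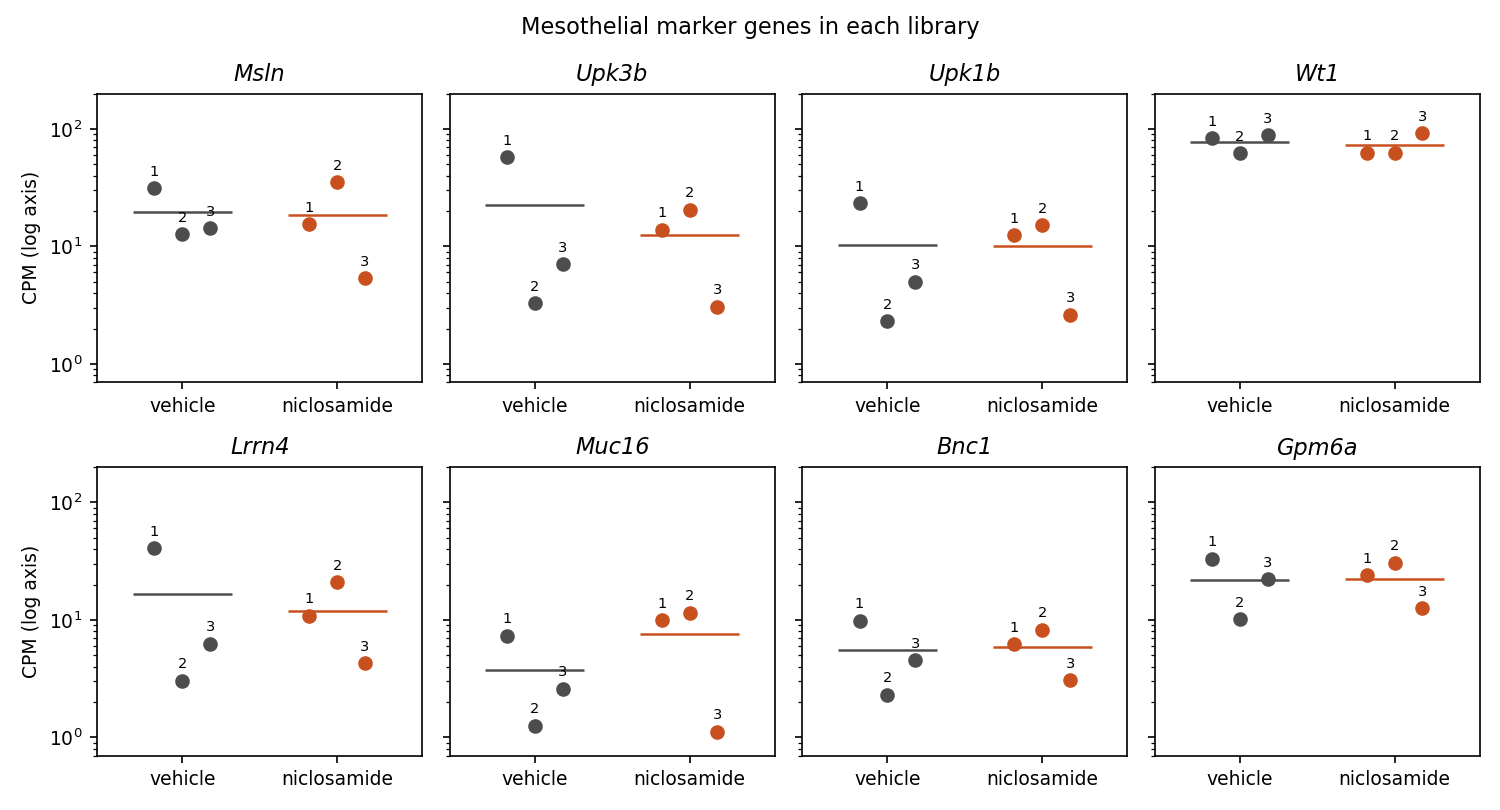
CPM (log axis) of the 8 mesothelial marker genes in each of the 3 vehicle (grey) and 3 niclosamide (orange) libraries, with the replicate number above each point and the group mean as a line. In every gene but Wt1 the libraries vehicle 1, niclosamide 1 and niclosamide 2 are the highest, and the groups overlap in all 8.

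Vehicle 1, niclosamide 1 and niclosamide 2 were the highest 3 libraries in 7 of the 8 markers, *Wt1* being the exception. Among the 14025 tested genes with a mean of at least 1 log2 CPM, 9.96% had these as their highest 3. Vehicle 1 and niclosamide 2 were the highest pair in 6 of the 8, and in 12.8% of those genes. In *Muc16* niclosamide 1 replaced vehicle 1 in that pair. The third place of niclosamide 1 over vehicle 3 was narrow in *Msln*, at 454 against 453 counts and 15.4 against 14.2 CPM. It was also narrow in *Gpm6a*, at 24.0 against 22.3 CPM. The ratio of the highest to the lowest library was 18.5 in *Upk3b*, 13.4 in *Lrrn4*, 10.3 in *Muc16*, 10.1 in *Upk1b*, 6.54 in *Msln*, 4.28 in *Bnc1* and 3.27 in *Gpm6a*. Its median over those genes was 1.62, and 1.92% of them had a ratio at least as large as *Upk3b*, 3.69% as large as *Upk1b* and 14.2% as large as *Gpm6a*, against 61.8% for *Wt1*. In RNA of a mixed tissue, fewer cells of a type and less RNA per cell cannot be told apart. Vehicle 1 and niclosamide 1, among those highest 3 libraries, had 340 and 1020 counts of *H2-Ea-ps*. Vehicle 1 was also the pool of 4 mice. The part of mouse background and of pooling in this order of libraries was not tested.

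With each gene's log2 CPM centred on its own mean, the 8 markers averaged 1.25, -1.14 and -0.27 in the vehicle libraries and 0.38, 0.87 and -1.08 in the niclosamide libraries. The root mean square difference between a gene's centred profile and the mean of the other 7 was smallest for *Bnc1*, at 0.24 on the log2 scale, followed by 0.40 for *Gpm6a*, 0.42 for *Upk1b*, 0.50 for *Lrrn4* and 0.52 for *Msln*. *Muc16* and *Upk3b* were farther from the others, both at 0.70, and *Wt1* was farthest, at 1.12. *Upk3b* departed through its height in vehicle 1, and *Muc16* through its height in niclosamide 1 and niclosamide 2.

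**Figure D2:**
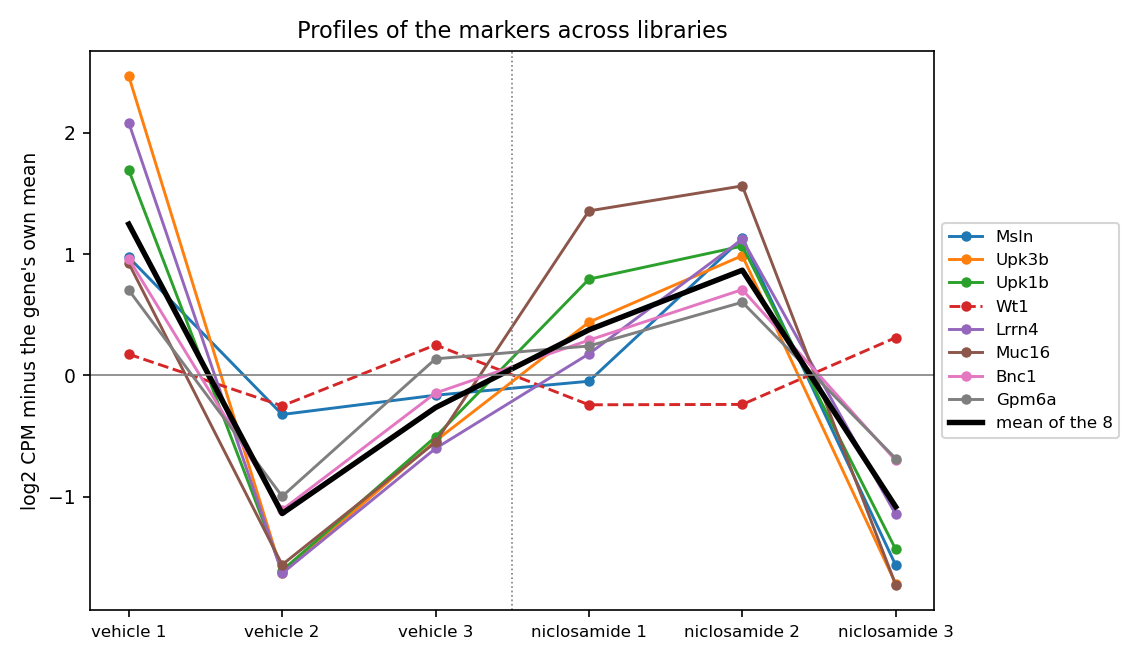
Log2 CPM of each marker minus its own mean over the 6 libraries, with the mean of the 8 genes in black. The mean is 1.25 in vehicle 1, 0.87 in niclosamide 2 and below -1 in vehicle 2 and niclosamide 3, and the dashed line of Wt1 stays near 0.

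Ratios of raw counts within a library do not depend on how libraries are scaled, and they show how the proportions of the markers varied. *Upk1b* had 0.409, 0.706 and 0.714 counts per count of *Upk3b* in the vehicle libraries and 0.895, 0.738 and 0.848 in the niclosamide libraries. The groups did not overlap in this ratio, 0.738 lying just above 0.714, and they overlapped in the other ratios given here. How often ratios of other gene pairs do not overlap was not examined. *Lrrn4* had 0.715, 0.933 and 0.893 per count of *Upk3b* in the vehicle libraries and 0.778, 1.02 and 1.39 in the niclosamide libraries. Both ratios spanned a narrower range over the libraries than the level of *Upk3b* did. *Muc16* had 0.129, 0.387 and 0.371 counts per count of *Upk3b* with vehicle and 0.715, 0.563 and 0.364 with niclosamide, so that niclosamide 3 lay inside the vehicle range. *Msln* varied more, with 0.55, 3.90 and 2.02 counts per count of *Upk3b* in the vehicle libraries and 1.11, 1.71 and 1.74 in the niclosamide libraries. *Wt1* had from 1.46 counts per count of *Upk3b* in vehicle 1 to 29.8 in niclosamide 3. None of these ratios was tested, since the pairs were chosen with the levels known.

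Levels of different genes can be set side by side only per length. In RPKM, which is CPM divided by exon length in kilobases, *Wt1* was the highest of the 8, with 25.2 ± 4.47 (SD, n = 3) with vehicle and 23.4 ± 5.46 with niclosamide. *Upk3b* followed with 11.03 ± 14.76 and 6.13 ± 4.30 RPKM, *Msln* with 8.76 ± 4.66 and 8.37 ± 6.78, *Gpm6a* with 6.13 ± 3.22 and 6.31 ± 2.59, and *Upk1b* with 5.05 ± 5.65 and 4.97 ± 3.25. *Lrrn4* had 2.85 ± 3.57 and 2.05 ± 1.43 RPKM, *Bnc1* 0.998 ± 0.695 and 1.05 ± 0.468, and *Muc16* 0.139 ± 0.119 and 0.280 ± 0.208. In this order by the mean over all libraries, *Upk3b* exceeded *Msln* in 1 library of 6, vehicle 1, so these neighbours were not separated. *Wt1* exceeded *Upk3b*, *Msln* exceeded *Gpm6a*, and *Gpm6a* exceeded *Upk1b* in 5 of 6 libraries each. From *Upk1b* downward each gene exceeded the next in all 6.

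**Figure D3:**
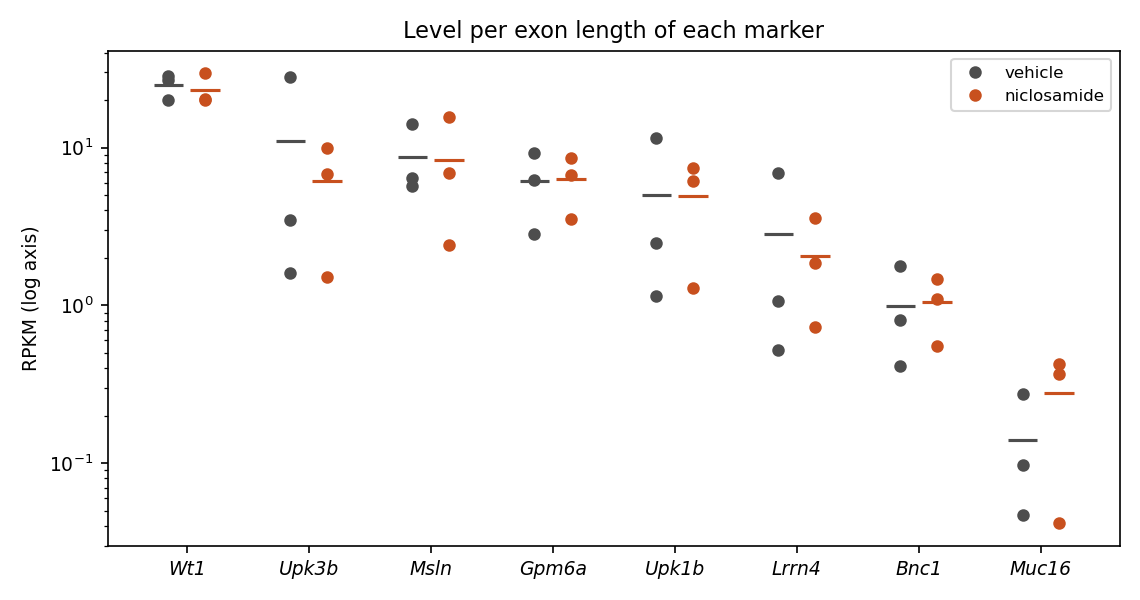
RPKM (log axis) of the 8 markers in each library, vehicle in grey and niclosamide in orange, with group means as short lines, ordered by the mean over all libraries. Wt1 lies at 20.1 to 29.7 RPKM in every library and Muc16 below 0.5 RPKM in every library.

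The deposited files hold no sequence, so the start regions of the markers were taken from RefSeq on GRCm38.p6, to see whether genes that shared their highest libraries share short motifs there. The table used held 5 of the 8 genes, *Upk3b*, *Lrrn4*, *Muc16*, *Bnc1* and *Gpm6a*, the last with 2 starts. The 250 bases before the start were searched, and those of all but *Muc16*, whose region overlaps an exon of the deposited gene model, are printed 5′ to 3′ on the strand of the gene, for *Gpm6a* at its first start. Capitals mark GGAATG or its reverse complement CATTCC, the core recognised by TEAD factors, which act in the Hippo pathway.
*Upk3b* chr5:136038246-136038495 (+): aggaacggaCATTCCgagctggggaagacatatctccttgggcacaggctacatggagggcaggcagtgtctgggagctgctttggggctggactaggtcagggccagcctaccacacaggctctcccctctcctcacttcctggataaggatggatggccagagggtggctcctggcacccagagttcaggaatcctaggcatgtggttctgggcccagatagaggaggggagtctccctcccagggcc
*Lrrn4* chr2:132880863-132881112 (-): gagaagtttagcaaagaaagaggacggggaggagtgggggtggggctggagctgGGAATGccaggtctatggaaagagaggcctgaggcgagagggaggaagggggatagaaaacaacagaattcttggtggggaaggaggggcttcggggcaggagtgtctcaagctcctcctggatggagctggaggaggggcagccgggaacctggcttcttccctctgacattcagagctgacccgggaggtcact
*Gpm6a* chr8:54779184-54779433 (+): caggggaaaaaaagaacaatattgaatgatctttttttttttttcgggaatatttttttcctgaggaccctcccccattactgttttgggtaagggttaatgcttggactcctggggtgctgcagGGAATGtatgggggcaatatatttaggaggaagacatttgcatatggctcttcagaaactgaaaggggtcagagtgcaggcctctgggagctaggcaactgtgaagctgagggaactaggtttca
*Bnc1* chr7:81992300-81992549 (-): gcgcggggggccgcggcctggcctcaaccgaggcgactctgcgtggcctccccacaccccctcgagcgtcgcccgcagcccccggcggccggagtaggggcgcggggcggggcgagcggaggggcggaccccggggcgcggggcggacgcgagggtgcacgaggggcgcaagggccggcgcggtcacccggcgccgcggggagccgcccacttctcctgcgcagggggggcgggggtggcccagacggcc

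The TEAD core was found in 3 of the 5 genes, near the upstream end of the region in *Upk3b*, 196 bases before the start in *Lrrn4* and 125 before the first start in *Gpm6a*. The second *Gpm6a* region did not hold it. Of the 32817 start regions of the same length, 12.6% hold it on either strand. Such shares are per start region, whereas a gene was counted if any of its regions had a match. The WT1-type letters GTGGGNG were found in *Lrrn4* and *Bnc1*, against 28.1% of all start regions. The SP/KLF letters GGGCGG were found in *Bnc1* alone, at 5 places, 1 of them overlapping the WT1-type match, against 32.7% of all start regions. The GATA letters AGATAA were in none of the 5 genes (9.99% of all), and the TATA box letters TATAAA only in the second *Gpm6a* start (12.4% of all). Both strands were searched for each motif. G and C made up 60.8% of the *Upk3b* region, 59.2% of *Lrrn4*, 46.4% of *Muc16*, 83.6% of *Bnc1* and 44.4% of the first *Gpm6a* region. A match is a run of letters and shows no binding, and the starts of *Lrrn4* and *Muc16* and the second of *Gpm6a* lie inside the longer gene models of the count files.

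How far each fold change rested on a single library was examined by leaving out each library in turn. Without vehicle 1 the log2 fold change turned from below to above 0 in *Msln* (0.46), *Upk3b* (1.28), *Upk1b* (1.46) and *Lrrn4* (1.37). It was 1.96 in *Muc16*, and the median of the 8 was 1.02. Without niclosamide 2 the median was -0.37, and without niclosamide 3 it was 0.36. In these fits 0 of the 8 genes passed the threshold, and the lowest adjusted p of any marker was 0.558, for *Muc16* without niclosamide 3 (edgeR quasi-likelihood, Benjamini-Hochberg). Without both libraries that held *H2-Ea-ps* reads, which left 2 in each group, all 8 fold changes were above 0, from 0.04 in *Wt1* to 1.71 in *Muc16*, with adjusted p values of at least 0.98.

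**Figure D4:**
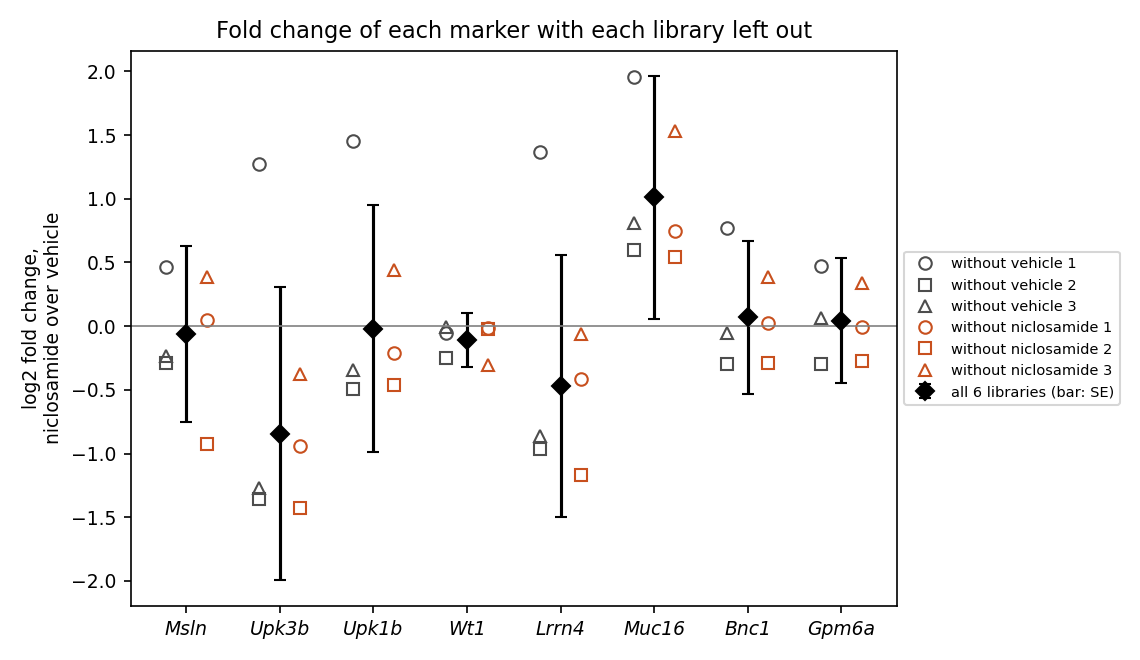
Log2 fold change of niclosamide over vehicle for each marker with all 6 libraries (diamond, bar of 1 SE) and with each library left out (open symbols, grey for a vehicle and orange for a niclosamide library). Leaving out vehicle 1 raises the value in all 8 genes, to 1.28 in Upk3b, 1.46 in Upk1b and 1.37 in Lrrn4, and Wt1 stays below 0 in each of these fits.

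Other genes tied to mesothelium were read from a list of 16, of which 15 were tested. In the edgeR quasi-likelihood fit, after Benjamini-Hochberg adjustment, 0 of the 15 passed the threshold. An unadjusted p under 0.05 was found for 1 of the 15, and for 6.92% of all genes tested. The median log2 fold change was -0.22, with 5 of 15 above 0, beside 0.02 over all genes tested. *Aldh1a2*, the retinoic acid synthesis enzyme gene, was that 1 gene and the lowest of the list. It had 199.7, 306 and 199.4 CPM in the vehicle libraries and 72.8, 152 and 89.8 CPM in the niclosamide libraries, without overlap, where 6.37% of all genes tested had every niclosamide library below every vehicle library. Its log2 fold change was -1.16 ± 0.33 (SE; edgeR quasi-likelihood, Benjamini-Hochberg adjusted p = 0.603). *Aldh1a2* is also known from endometrial stroma, and its libraries were not ordered as those of the 7 markers. *Tbx18*, a factor of embryonic mesothelium, had the highest log2 fold change of the list, 1.00 ± 0.46 (SE), at 1.35 to 6.19 CPM. *Calb2*, which encodes calretinin, a standard mesothelial stain in human tissue, had 0, 4 and 6 counts under vehicle against 2, 16 and 80 under niclosamide. It did not pass the filter, and it was at 0 in the library where *Upk3b* was highest.

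Within that list 4 of 15 genes had vehicle 1, niclosamide 1 and niclosamide 2 as their highest 3 libraries, against 9.96% of the genes with at least 1 log2 CPM. *Nkain4*, a small membrane protein gene, had 19.1, 1.68 and 2.95 CPM with vehicle and 4.93, 9.74 and 2.58 CPM with niclosamide. *Pkhd1l1* had 43.9, 8.95 and 14.4 CPM with vehicle and 22.9, 43.2 and 11.3 CPM with niclosamide, and *Ildr2* had 74.5, 24.9 and 32.9 with vehicle and 71.2, 76.8 and 27.3 with niclosamide. *Prg4*, which encodes lubricin, a lubricating glycoprotein, was the other, with 21.3, 6.65 and 5.66 CPM under vehicle and 13.6, 9.03 and 3.45 CPM under niclosamide. The lowest pair was vehicle 2 and niclosamide 3 in the first 3 of these genes and vehicle 3 and niclosamide 3 in *Prg4*. The 4 keratin genes of the list, *Krt7*, *Krt8*, *Krt18* and *Krt19*, did not have those highest 3 libraries, being lowest or second lowest in niclosamide 1. They are also keratins of uterine epithelium.

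The tested genes most like the mean profile of the 8 markers were found by the root mean square difference of centred log2 CPM over the 6 libraries, among 13199 named genes with a mean of at least 1 log2 CPM. The nearest was *Myrf*, which encodes a membrane-bound transcription factor, at 0.15, with 52.6, 9.97 and 19.6 CPM in the vehicle libraries and 36.1, 36.1 and 10.2 CPM in the niclosamide libraries. *Pkhd1l1*, already on the mesothelium list, was next at 0.19. *Sez6l* and *Tmem151a* were at 0.21 each, *Crb2*, a polarity gene of epithelia, at 0.23, and *Trf*, the transferrin gene, at 0.25. *Ccl4*, *Calca*, *Plaur* and *Gpr133* completed the 10, at 0.27 each, while the median over all 13199 genes was 0.95. The log2 fold changes of the 10 lay between -0.34 and 0.20, all with adjusted p of at least 0.97 (edgeR quasi-likelihood, Benjamini-Hochberg). Such values follow from the choice, since the profile used differs little between the group means, and they are no separate result.

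Markers of other cell types were set beside the 8 genes, since a lesion cut from the peritoneal wall can hold several of them. Peritoneal macrophage genes came nearest in profile, with a root mean square difference of 0.43 log2 from the mean of the markers. Of the 10 genes, 6 had vehicle 1, niclosamide 1 and niclosamide 2 as their highest 3 libraries, against 9.96% of all genes with at least 1 log2 CPM. They summed to 310.2 to 539.9 CPM with vehicle and 395 to 638 CPM with niclosamide, and none was at 0 in every library. *Gata6*, a defining factor of large peritoneal macrophages that mesothelial cells are also known to express, had 31.8, 14.2 and 24.7 CPM with vehicle and 44.2, 34.4 and 17.0 CPM with niclosamide. *Timd4*, a receptor of resident macrophages, had 13.4, 1.29 and 1.16 CPM with vehicle and 12.5, 3.68 and 2.08 CPM with niclosamide. *Fcna*, a macrophage ficolin gene, had 49.6, 2.09 and 3.49 CPM with vehicle and 8.46, 8.31 and 3.24 CPM with niclosamide. These 3 are among the 6, and the other 4 genes of the list were ordered otherwise. *Alox15* was highest in niclosamide 3, at 412.3 CPM, and lowest in niclosamide 1, at 68.6 CPM, and *Selp* was highest in vehicle 3, at 37.9 CPM. *Garnl3* was lower in every niclosamide library, at 2.71 to 3.57 CPM against 4.01 to 4.78 CPM with vehicle. *Icam2* was higher in every niclosamide library, at 16.55 to 23.89 CPM against 14.04 to 15.97 CPM with vehicle. Of all genes tested, 6.37% were lower in every niclosamide library and 5.9% were higher in every one. The part of these cells in the marker levels was not tested. In the edgeR quasi-likelihood fit, after Benjamini-Hochberg adjustment, 0 of the 10 passed the threshold. An unadjusted p under 0.05 was found for 1, *Cd5l* (log2 fold change 1.58 ± 0.64 SE), and for 6.92% of all genes tested.

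The uterine epithelium list shared its highest pair of libraries, niclosamide 2 and vehicle 1, with 6 of the 8 markers, and parted from them in niclosamide 1. Its 15 tested genes had means of 6.30, 5.88 and 5.45 log2 CPM in the vehicle libraries and 3.83, 6.42 and 4.89 in the niclosamide libraries, so niclosamide 1 was the lowest library, whereas the mean of the 8 markers was lower in 3 other libraries. Niclosamide 3 was low in both. The part of epithelial RNA in the marker levels was not tested. The list summed to 3222 to 6259 CPM with vehicle and 645 to 5551 CPM with niclosamide. The markers' highest 3 libraries were found in 0 of the 13 with at least 1 log2 CPM, beside 9.96% of all such genes. Skeletal muscle genes ran from a list mean of 11.04 log2 CPM in niclosamide 1 to 5.75 in niclosamide 2, and adipocyte genes from 6.29 to 0.64 in the same libraries, where the 8 markers averaged 3.92 and 4.41. Both lists were thus highest in niclosamide 1 and lowest in niclosamide 2 of the 6 libraries. The part of recipient muscle and fat in the marker levels was not tested. Adipocyte genes summed to 489 to 845 CPM with vehicle and 364 to 1889 CPM with niclosamide.

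Structural RNAs parted the libraries by group, with 4 of 5 lower in every niclosamide library, against 6.37% of all genes tested. In the edgeR quasi-likelihood fit 3 of 5 had an unadjusted p under 0.05, against 6.92% of all genes tested, and 0 passed the threshold after adjustment. Their list means were 4.99, 4.06 and 4.48 log2 CPM in the vehicle libraries and 3.43, 1.31 and 0.77 in the niclosamide libraries, and those of the markers were 4.79, 2.41 and 3.28 with vehicle and 3.92, 4.41 and 2.46 with niclosamide. Vehicle 1 was the highest library of both and niclosamide 3 was lowest or second lowest in both, while they parted in niclosamide 2 and vehicle 2. What set the levels of these RNAs was not examined, and the part of RNA quality or library preparation in the marker levels was not tested. Smooth muscle genes likewise had 8 of 10 lower in every niclosamide library, with a median log2 fold change of -1.27 and 0 of 10 past the threshold (edgeR quasi-likelihood, 8 of 10 with unadjusted p under 0.05). Genes of mesothelial-to-mesenchymal transition and injury, the change by which mesothelial cells lose their markers and gain those of fibroblasts, gave 5 of 14 fold changes above 0, a median of -0.17 on the log2 scale and 0 of 14 past the threshold (edgeR quasi-likelihood, 2 of 14 with unadjusted p under 0.05). *Ctgf*, a matricellular target of TGF-beta and YAP, was the lowest of them, with 547, 172 and 314 CPM in the vehicle libraries and 71.5, 219 and 80.2 CPM in the niclosamide libraries. Its log2 fold change was -1.48 ± 0.59 (SE; edgeR quasi-likelihood, Benjamini-Hochberg adjusted p = 0.709). *Zeb2*, a transcription factor of such transitions, was the highest, at 0.44 ± 0.19 (SE), with 129, 139 and 141 CPM in the vehicle libraries and 236, 163 and 156 CPM in the niclosamide libraries.

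**Figure D5:**
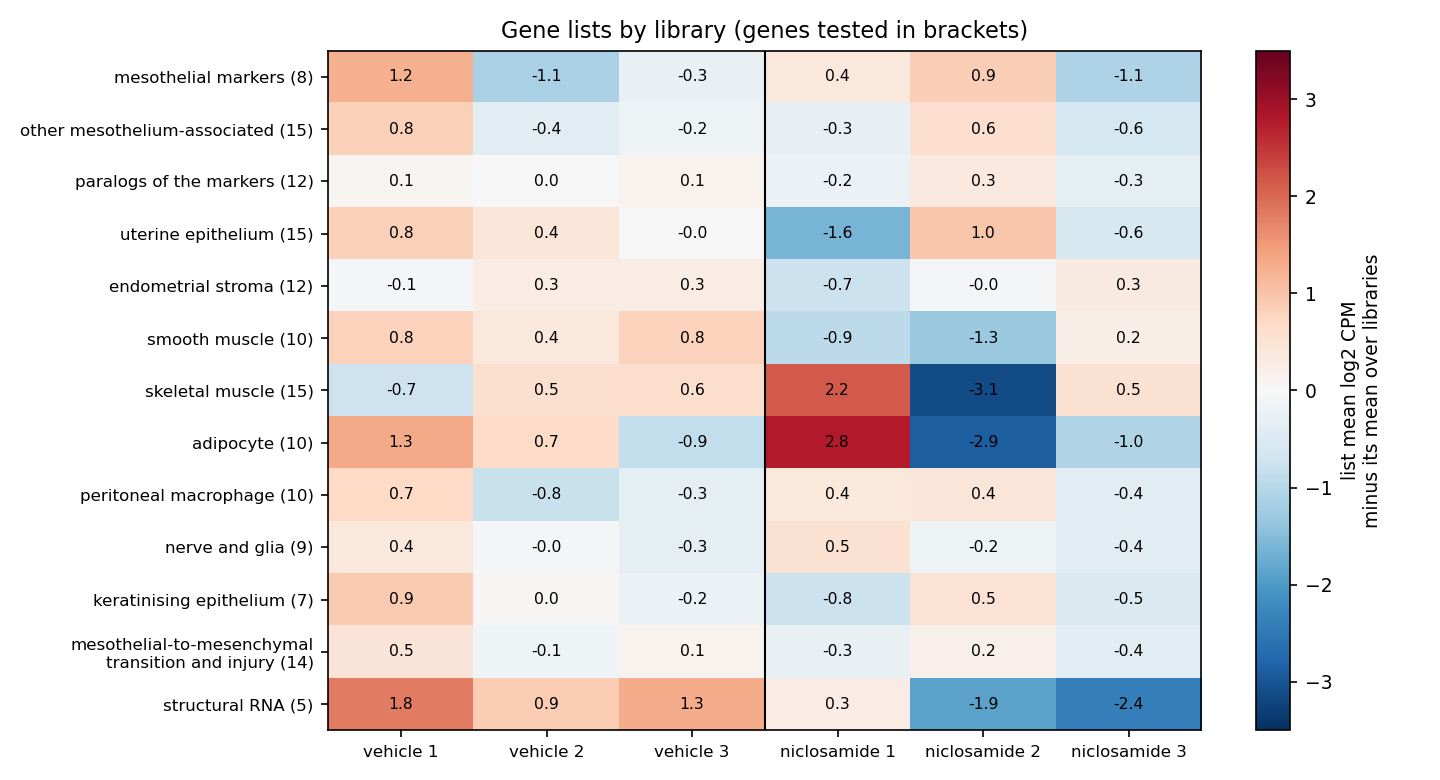
Mean log2 CPM of each gene list in each library minus the list's mean over the 6 libraries, with the number of tested genes in brackets (blue below 0, red above 0). The row of mesothelial markers is high in vehicle 1, niclosamide 1 and niclosamide 2, a pattern nearest to the peritoneal macrophage row and unlike the skeletal muscle and adipocyte rows.

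Relatives of the 8 markers in the same gene families were read as well, 12 of 15 being tested. Their median log2 fold change was 0.02 with 6 of 12 above 0, and 0 of 12 passed the threshold (edgeR quasi-likelihood). An unadjusted p under 0.05 was found for 1 of 12, and for 6.92% of all genes tested. Of the 10 with at least 1 log2 CPM, 1 had the markers' highest 3 libraries, beside 9.96% of all such genes. It was *Lrrn4cl*, with 43.0, 23.9 and 29.5 CPM with vehicle and 49.4, 36.1 and 27.5 CPM with niclosamide. *Mslnl*, the mesothelin-like gene, had 4 to 15 counts and did not pass the filter. *Muc1* and *Muc4*, membrane mucins of uterine epithelium, were lowest in niclosamide 1 and niclosamide 3, with 41.8 and 48.3 CPM of *Muc1*. Like *Muc16* they were highest in niclosamide 2 and low in niclosamide 3, and they parted from it in niclosamide 1. *Bnc2* had the lowest log2 fold change of the family list, -0.57, and *Lrrn3* the highest, 1.02.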

How the data were processed

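RNA of 6 lesions, or in vehicle 1 of a pool, was sequenced after a stranded library preparation with a column and DNase extraction, per the labels' protocols. The deposited values are raw read counts per gene symbol. Per the file headers, the authors made them with featureCounts 1.4.6-p4 on STAR alignments, reverse-stranded, over exons of the GRCm38.p3 annotation, without options for reads with several placements, so those were left out. Further tools, per the submitters' processing notes, were STAR 2.4.2a, Trimmomatic 0.33, edgeR 3.12.0 and bcl2fastq 1.8.4. The exon length per gene, in bases, is a deposited column of the same files.

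Here counts were filtered with filterByExpr (minimum count 10, minimum total 15), scaled by TMM and fitted with edgeR 4.0.16 in R 4.3.3 (robust quasi-likelihood, group as the only term). P-values of all 17364 tested genes were adjusted by Benjamini-Hochberg, and the threshold was 0.05. The standard error is the size of the fold change (log2) divided by the root of F, and list means use log2 CPM with a prior count of 2. The fit was tested on simulated data. The labels do not say that replicate numbers pair the libraries, and no pairing was used. Alternatives were RLE and upper-quartile scaling, DESeq2 1.42.0, limma-voom 3.58.1, other filters, a replicate block and each library left out. Leaving out the 2 libraries with *H2-Ea-ps* reads was added after seeing the data. The labels name no batch and no separate cohorts, so p-values measure the spread between these libraries. The members and lists were chosen with earlier results of these data known. Named genes were the 8 markers, the highest and lowest fold change of some lists, and the 10 genes nearest in profile. Other list genes were named to be set beside a marker or to show how a list varied. The extremes of the other lists were not named.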

Additional observations from a re-analysis of the deposited data

How the results depend on the processing

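In every alternative run 0 of the 8 markers passed the threshold. Over all genes, edgeR's quasi-likelihood test called 0 (1202 at an unadjusted p under 0.05), limma-voom 0, DESeq2 178, and edgeR without a filter on low counts 1. Leaving out single libraries gave 0 called genes each time, and a median log2 fold change of the markers from -0.37 to 1.02. With limma-voom *Upk1b* turned to 0.37 and *Lrrn4* to 0.23, and with the replicate block *Upk1b* turned to 0.16. Limma-voom also moved *Upk3b* to -0.06, so that *Msln*, at -0.28, was the lowest, and the median of the 8 to 0.19. The block moved *Upk3b* to -0.39 and *Msln* to -0.37, with a median of 0.02, and called 0 genes. Same-numbered libraries deviated with correlations of -0.085, -0.087 and 0.266. With 3 libraries per group these values cannot exclude pairing, and the numbers were not taken as pairs. Leaving out single libraries moved the log2 fold change of *Msln* from -0.92 to 0.46, of *Upk3b* from -1.43 to 1.28, of *Upk1b* from -0.49 to 1.46, of *Lrrn4* from -1.17 to 1.37, of *Bnc1* from -0.30 to 0.77 and of *Gpm6a* from -0.30 to 0.47. *Muc16* stayed between 0.55 and 1.96, and *Wt1* between -0.31 and -0.01. Without the 2 libraries with *H2-Ea-ps* reads the values that turned were 0.58 in *Msln*, 1.19 in *Upk3b*, 1.27 in *Upk1b*, 1.44 in *Lrrn4* and 0.041 in *Wt1*. The cause was not tested. *Muc16*, with 36 counts in its lowest library, had the fewest counts of the 8.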
